A study of Mus musculus with 2 samples.

Results

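The genes described here are 35 genes of glycolysis and of the transcriptional response to low oxygen, chosen by symbol, among the 27998 genes counted in 2 droplet single-cell RNA libraries. They are the glucose transporter Slc2a1 and the lactate exporter Slc16a3, 13 glycolytic enzyme genes (Hk1, Hk2, Gpi1, Pfkl, Pfkp, Aldoa, Tpi1, Gapdh, Pgk1, Pgam1, Eno1, Pkm and Ldha), the flux regulators Pfkfb3 and Pdk1, and 18 genes known as targets or parts of the hypoxia response (Bnip3, Bnip3l, Higd1a, Ak4, Hif1a, Egln1, Egln3, Ankrd37, Mxi1, Hilpda, Ndrg1, Ddit4, Vegfa, Adm, Ero1l, P4ha1, P4ha2 and Mif). The libraries hold live CD45+ cells, that is cells with the pan-leukocyte surface protein, from tumors of B16F10, a melanoma line of the mouse that was injected under the skin of C57BL/6 hosts. The control hosts were Usp18f/f, with a loxP-flanked Usp18 gene, and the knockout hosts were Usp18f/f LysM-Cre, in which Cre made from the Lyz2 locus acts in myeloid cells while the tumor cells keep their own Usp18. Both groups therefore carry the floxed allele and differ by the Cre insertion. Tumors were taken on day 14, 4 tumors per group were pooled, and each group gave 1 library. The age and sex of the hosts are not given in the sources used here.

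Glycolysis splits glucose to pyruvate in the cytosol, and lactate dehydrogenase turns pyruvate into lactate when respiration is limited or bypassed. When oxygen falls, the prolyl hydroxylases (Egln1, Egln3) no longer mark the HIF-1 alpha protein (Hif1a) for destruction, and HIF binds short DNA sites to raise transcription of glucose transporters, most glycolytic enzymes, vessel growth factors and mitophagy receptors. In tumors the response is known in malignant cells and in the myeloid cells that enter poorly perfused areas.

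The libraries held 7754 barcodes (control) and 6063 barcodes (labelled knockout) with 43412346 and 48167632 unique molecular identifiers (UMIs), and 6650 and 5454 barcodes were kept after removal of 477 and 292 predicted doublets and of barcodes above 10% mitochondrial UMIs. The 2 libraries shared 8 barcode sequences. Cells were placed in 11 classes by sets of marker genes that contain none of the 35 genes, and 134 and 189 cells with both macrophage and monocyte markers were left out. The targeted gene went against its label: Usp18 was at 19.5 counts per 1000000 UMIs of its class (CPM) in control monocytes and 174 CPM in those labelled knockout, and at 16.4 and 44.9 CPM in macrophages. These 3' tags do not read a deletion elsewhere in the gene. Lyz2, the locus that carries Cre, was at 11965 and 24.6 CPM in monocytes and at 7412 and 10.5 CPM in macrophages. The near absence of Lyz2 RNA goes with the Cre label, while Usp18 RNA does not bear out the knockout. The sample is therefore called the library labelled knockout throughout. With 1 library per group no difference between groups has a replicate or a test, and all intervals below are exact 95% intervals that cover counting error only. Sums over a class cannot tell fewer expressing cells from less RNA per cell.

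To show the DNA in front of these genes, the 250 bases before the first listed start of 6 members are given 5' to 3' from RefSeq (GRCm38.p6), with capitals for the HIF core motifs ACGTG and GCGTG on either strand. Slc2a1 and Ldha stand for the glycolysis genes, Bnip3 and Ero1l for response genes with several motifs, and Egln3 and Hilpda are the response genes with the widest differences between pools of monocytes described below.
Slc2a1, chr4:119108495-119108744, plus strand: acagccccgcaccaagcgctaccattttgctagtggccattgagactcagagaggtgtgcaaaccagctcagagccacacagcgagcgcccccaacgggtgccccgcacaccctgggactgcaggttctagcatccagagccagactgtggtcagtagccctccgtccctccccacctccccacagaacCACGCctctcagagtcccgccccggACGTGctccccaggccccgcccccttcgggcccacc
Ldha, chr7:46845554-46845803, plus strand: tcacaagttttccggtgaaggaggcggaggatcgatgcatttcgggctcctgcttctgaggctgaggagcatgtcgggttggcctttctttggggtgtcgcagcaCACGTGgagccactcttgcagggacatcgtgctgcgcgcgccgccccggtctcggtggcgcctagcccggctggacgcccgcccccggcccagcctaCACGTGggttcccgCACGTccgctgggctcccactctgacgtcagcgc
Bnip3, chr7:138909507-138909756, minus strand: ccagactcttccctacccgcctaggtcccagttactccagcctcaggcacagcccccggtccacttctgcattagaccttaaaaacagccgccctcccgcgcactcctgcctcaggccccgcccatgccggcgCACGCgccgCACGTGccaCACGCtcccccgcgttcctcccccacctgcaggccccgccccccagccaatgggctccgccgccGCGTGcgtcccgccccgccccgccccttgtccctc
Ero1l, chr14:45318573-45318822, minus strand: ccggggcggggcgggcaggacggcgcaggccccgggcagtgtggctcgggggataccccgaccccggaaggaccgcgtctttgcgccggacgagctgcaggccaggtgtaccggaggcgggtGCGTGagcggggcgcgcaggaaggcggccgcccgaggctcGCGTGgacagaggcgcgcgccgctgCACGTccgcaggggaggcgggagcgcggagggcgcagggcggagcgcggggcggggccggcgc
Egln3, chr12:54203875-54204124, minus strand: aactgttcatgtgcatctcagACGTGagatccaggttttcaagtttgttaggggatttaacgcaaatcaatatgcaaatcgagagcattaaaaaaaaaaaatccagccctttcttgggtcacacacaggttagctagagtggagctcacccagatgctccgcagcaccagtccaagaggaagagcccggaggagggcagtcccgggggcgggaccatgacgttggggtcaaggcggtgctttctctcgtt
Hilpda, chr6:29272238-29272487, plus strand: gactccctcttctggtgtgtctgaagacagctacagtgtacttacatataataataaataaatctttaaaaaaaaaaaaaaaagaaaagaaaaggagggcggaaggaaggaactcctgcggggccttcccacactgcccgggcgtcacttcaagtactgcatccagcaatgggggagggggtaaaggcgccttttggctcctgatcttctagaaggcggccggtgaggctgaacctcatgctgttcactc
Of the 35 genes, 33 had an entry, and Bnip3l and Ndrg1 had none. At least 1 motif stood in the window of 24 of the 33 (72.7%), against 10442 of 27025 genes (38.6%), and 2 or more stood in 57.6% against 16.8%. A CACGTG palindrome counts on both strands, as in the Ldha and Bnip3 windows. The windows of the 33 genes were also richer in G and C, at a median of 64% against 52%. Among windows of 55 to 65% GC, 9 of 13 members (69.2%) and 53.4% of all genes held a motif, and at 65% GC or more 14 of 15 members (93.3%) and 67.0% of all genes did. Under 55% GC it was 1 of 5 members (20%) and 24.7% of all genes. The Hilpda window held none of these letters, which says nothing about other windows of that gene.

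Most of the 35 genes were highest in neutrophils or in melanoma cells. In the control library the highest CPM among the 11 classes fell in neutrophils for 18 genes, in melanoma cells for 15 and in migratory dendritic cells for 2. The same count was not made over all genes, so these counts cannot be called particular to the 35. Most glycolytic enzymes peaked in melanoma cells: Gapdh, which oxidises glyceraldehyde phosphate, was at 6049 CPM there, 2762 in neutrophils, 2375 in monocytes, 1771 in macrophages and 377 in B cells. Tpi1, the triose phosphate isomerase, had 2454 CPM in melanoma cells and between 86.4 and 735 CPM in the other 10 classes. The order was different for response genes. Hilpda, which blocks lipid droplet breakdown, was at 1606 CPM in neutrophils, 370 in monocytes, 120 in macrophages, 107 in melanoma cells and 28.3 in B cells. Ero1l, an oxidase of protein folding in the endoplasmic reticulum, was at 1229 CPM in neutrophils and at 308 CPM in both monocytes and melanoma cells. Egln3, the HIF prolyl hydroxylase that is itself a HIF target, reached 441 CPM in neutrophils and 122 in monocytes, and lay at 5.24 in melanoma cells and 0.9 in B cells.

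Members of one pathway did not share 1 order across the classes. Pfkfb3, whose product makes the activator of phosphofructokinase, was highest in migratory dendritic cells (310 CPM, 273 to 350) and at 6.77 CPM in melanoma cells. Ndrg1, a stress-responsive gene, was also highest in migratory dendritic cells at 192 CPM, with 176 in monocytes. Pfkp, the platelet form of phosphofructokinase, was at 262 CPM in cDC1 cells against 144 in monocytes, while Pfkl, the liver form, was at 34.5 and 79.9 CPM. Adm, which codes for the vessel-relaxing peptide adrenomedullin, was at 45.8 CPM in melanoma cells and at 6.08 or below in each of the other 10 classes. After each cell was thinned to 1000 UMIs, Hilpda was detected in 49.8% of control neutrophils (45.9% unthinned), 17.8% of control monocytes (32.8% unthinned) and 2.0% of control B cells (3.6% unthinned), the last standing here for background. The median depth was 1129, 5832.5 and 1496 UMIs in these 3 classes. Cells under 1000 UMIs were left out of the thinned shares. They were 150 of 431 neutrophils, 14 of 866 monocytes and 49 of 1414 B cells.

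**Figure D1:**
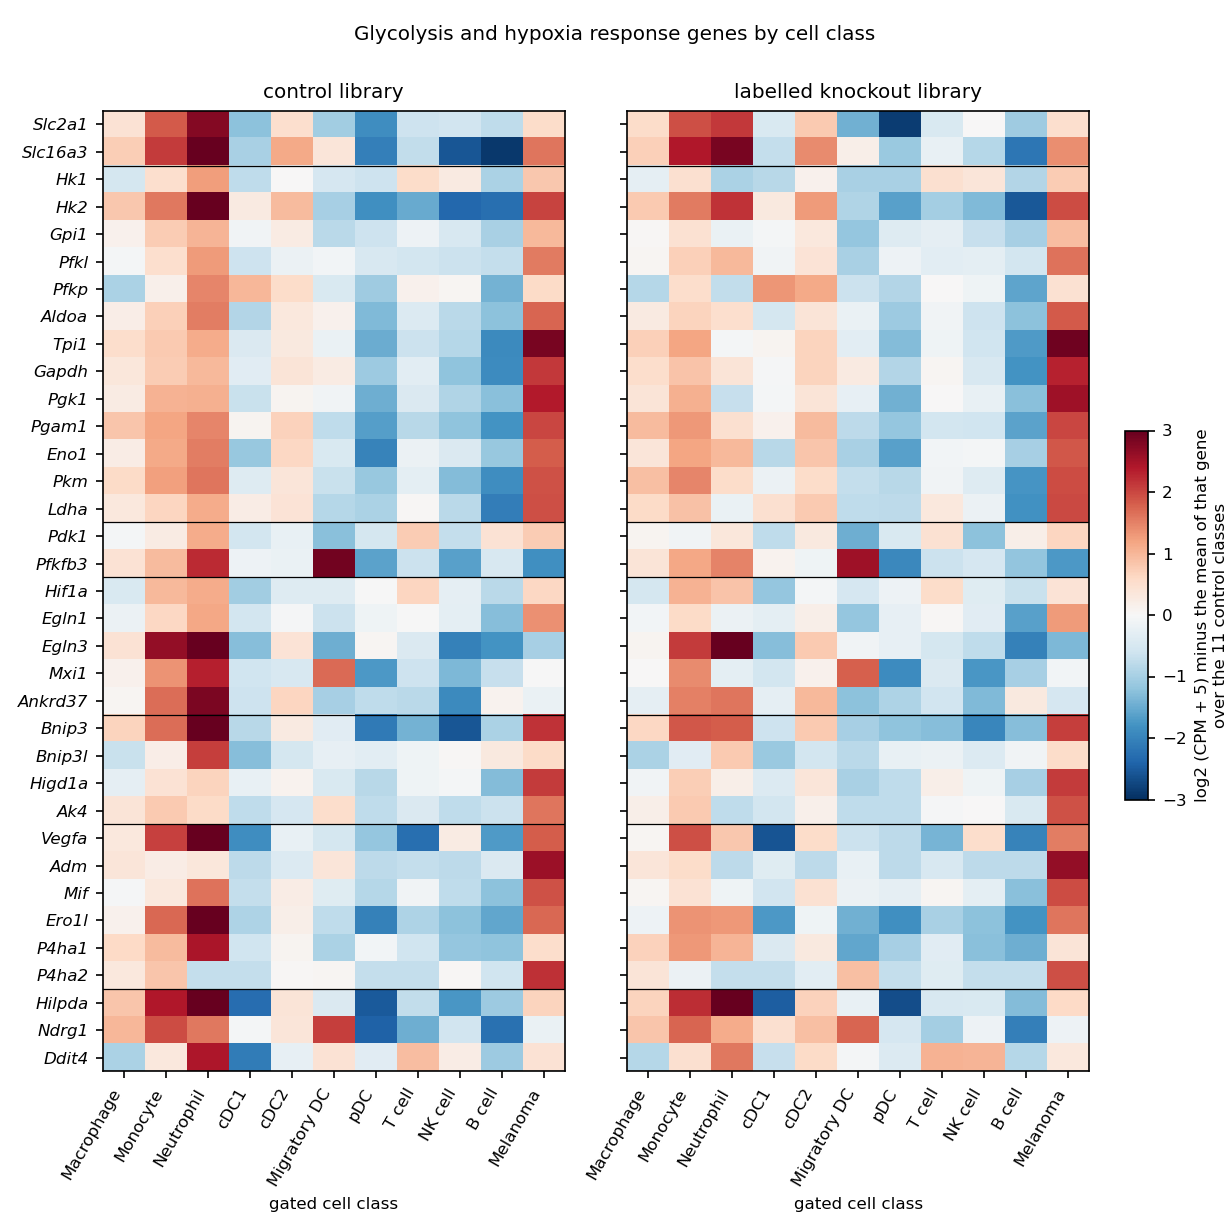
Level of each of the 35 genes (rows) in the 11 cell classes (columns), with a panel for the control library and a panel for the library labelled knockout. Values are log2(CPM + 5) minus that gene's mean over the 11 control classes in both panels, so colours compare classes within a gene and not genes with each other. In the control panel the neutrophil, monocyte and melanoma columns hold most of the high values, with Pfkfb3 and Ndrg1 highest in migratory dendritic cells.

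Macrophages of the library labelled knockout carried nearly the same levels of these genes as control macrophages. None of the 35 was 2-fold higher or lower on the log2(CPM + 5) scale, where 0.486% of all genes tested were 2-fold higher and 0.153% lower. The median log2 ratio was 0.07 (all genes -0.02), the range ran from -0.36 to 0.31, and all 35 stayed within 1.5-fold. At a mitochondrial limit of 5%, which kept 308 of 679 control macrophages and 599 of 981 in the other library, the median turned to -0.20 (all genes 0.01). By role, 11 of 13 glycolytic enzymes lay above 0 (median 0.13) and 4 of the 5 genes Hif1a, Egln1, Egln3, Ankrd37 and Mxi1 below (median -0.11), and these small ratios were not tested. Pkm, the pyruvate kinase, was at 839 CPM in control and 1041 in the other library (fold 1.24, interval 1.20 to 1.28). Ldha was at 632 and 762 CPM (log2 0.27). Egln3 was at 22.7 and 16.7 CPM (log2 -0.36), and Ero1l at 98.9 and 79.6 (log2 -0.30). The summed level of the 7 macrophage markers was 18713 CPM in control and 18729 in the other library. Markers of other cells moved: the 6 neutrophil markers summed to 103 and 34.3 CPM (Retnlg at 0 in the latter), the 4 erythroid markers to 1.01 and 175 (Hbb-bt at 0 in control) and the 5 plasmacytoid dendritic cell markers to 351 and 606. The plasmacytoid sum includes Bst2, an interferon-induced gene that was left out when cells were placed in classes. It does not by itself show RNA of plasmacytoid cells. The part of all these markers in the differences was not tested.

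Monocytes showed the same size of difference with a wider spread. No gene was 2-fold higher (2.05% of all genes tested) and 1 was 2-fold lower (0.268%), with a median of 0.07 (all genes -0.06). The 1 gene was P4ha2, a collagen prolyl hydroxylase subunit, at 9.76 and 2.33 CPM from 52 and 18 UMIs (log2 -1.01, fold interval 0.13 to 0.41). It was no longer counted at a minimum of 100 UMIs, with doublets kept, with classes from clusters, with Xist-bearing cells only or with ratios centred on all genes. Among the 13 enzymes 9 lay above 0 (median 0.08). Tpi1 was at 589 and 774 CPM (log2 0.39), Pfkp at 144 and 188 (0.37), and Slc16a3, the lactate exporter, at 212 and 266 (0.32). Gpi1, the glucose phosphate isomerase, was the lowest of the 13 enzymes relative to control at 601 and 485 CPM (log2 -0.31). Among response genes Bnip3l, a mitophagy receptor, was at 201 and 137 CPM (log2 -0.54), Egln3 at 122 and 81.9 (-0.55), Ero1l at 308 and 236 (-0.38) and Hilpda at 370 and 323 (-0.19). Bnip3, the paralog of Bnip3l, went the other way, at 188 and 217 CPM (log2 0.20), as did P4ha1 at 110 and 141 (0.35). The 6 monocyte markers summed to 6934 CPM in control and 9302 in the other library. The 6 neutrophil markers, all detected in both, summed to 233 and 91.7 CPM, the erythroid markers to 1.13 and 277 (Hba-a1 and Hba-a2 at 0 in control) and the plasmacytoid dendritic cell markers to 174 and 715 (Klk1 at 0 in control). The plasmacytoid sum again includes the interferon-induced Bst2. Of the genes named in this paragraph, Egln3, Ero1l, Hilpda, Bnip3l and Gpi1, all lower here, were highest in neutrophils in control. Bnip3, P4ha1, Slc16a3 and Pfkp, all higher here, were highest in neutrophils too. The part of neutrophil and other markers in the differences was not tested. The 7 pentose phosphate genes, a branch that leaves glycolysis at glucose phosphate, were all lower by small amounts (median -0.15), and the 12 genes of the TCA cycle, which burns pyruvate in mitochondria, were split 4 higher and 8 lower.

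In melanoma cells, which come from the injected line and not from the host, no gene reached 2-fold in either direction (0.113% of all genes tested higher, 0.0435% lower). The median was -0.04 (all genes -0.02). Gapdh had 6049 and 6933 CPM (log2 0.20), Pgk1, the phosphoglycerate kinase, 196 and 223 (0.18), and Vegfa, the vascular growth factor, 120 and 96.8 (-0.29). Hif1a was at 258 and 221 CPM (log2 -0.21). The summed melanoma markers were 16514 and 16193 CPM. The melanoma barcodes came through a CD45+ sort, and 146 of the 358 in the library labelled knockout were shallow against 2 of 149 in control. Leaving the shallow ones out gave a median of -0.04. A mitochondrial limit of 5%, which kept 27 of 149 control cells and 216 of 358 in the other library, turned it to 0.13, and cells with Xist only turned it to 0.062. Only 8 and 42 melanoma barcodes had Xist only, and 13 and 4 had Y-linked UMIs only. Since these cells come from the injected line, this split does not tell the sex of the host.

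**Figure D2:**
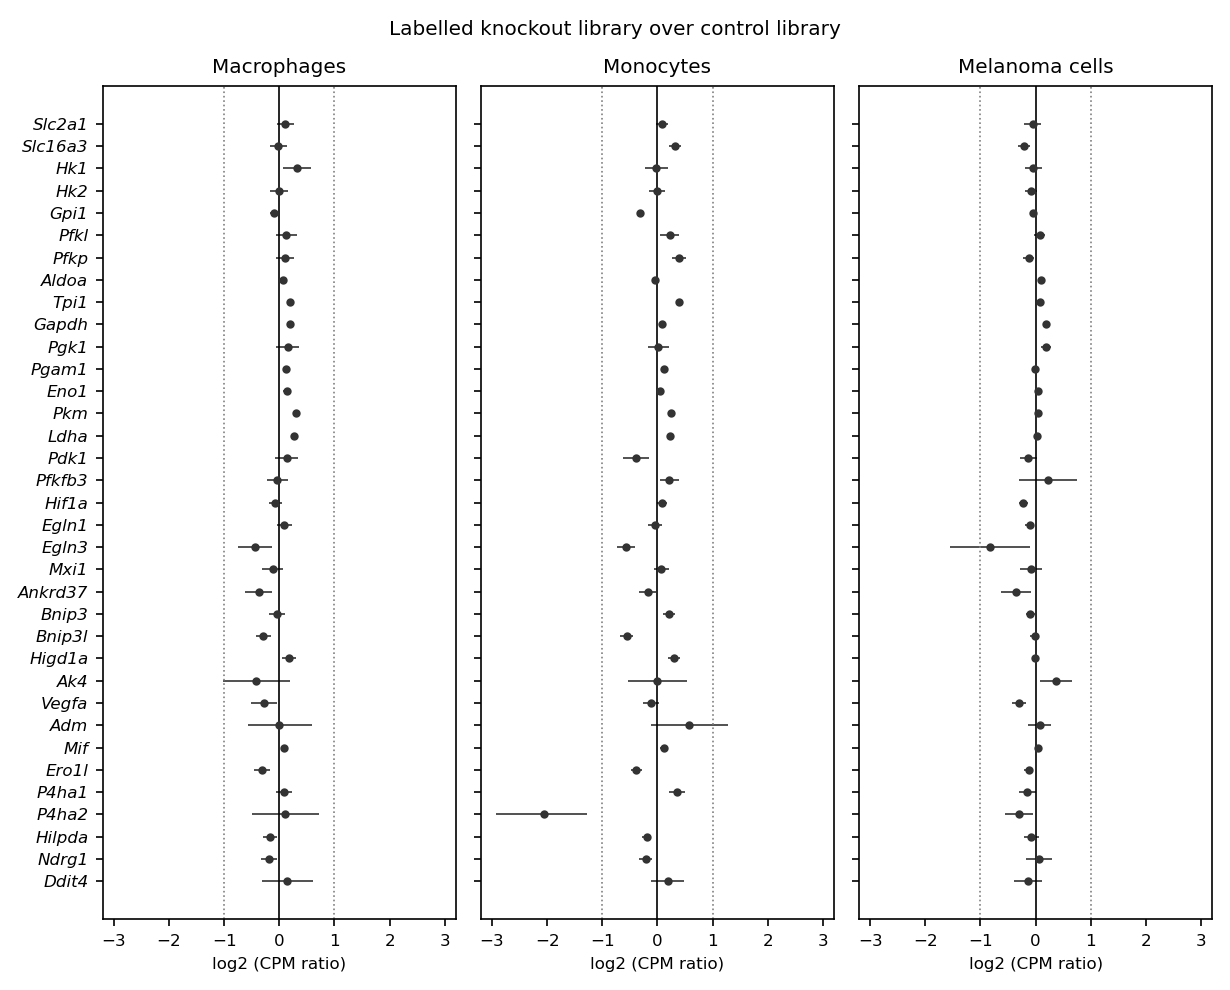
Ratio of CPM in the library labelled knockout to CPM in the control library for each gene in macrophages, monocytes and melanoma cells, on a log2 axis with exact 95% intervals for counting error and dotted lines at 2-fold. The ratios are without the added 5 CPM used in the text, so low-count genes such as P4ha2 lie further out, and most points sit between the dotted lines.

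Monocytes split by X- and Y-linked transcripts differed between the libraries in opposite directions. Cells with Xist UMIs and no Y-linked UMI, and cells with Y-linked UMIs and no Xist, were both present in each library, so each pool held female and male host cells in unknown numbers of animals. Monocytes with Xist numbered 199 in control and 1019 in the library labelled knockout, and those with Y-linked UMIs 402 and 100. Among monocytes with Xist, 0 of 34 genes reached 2-fold (3.01% of all genes tested higher, 1.23% lower), and the median was 0.38 (all genes -0.04). Among monocytes with Y-linked UMIs, 9 of 34 were 2-fold lower (2.6% of all genes tested) and none 2-fold higher (2%), and the median was -0.65 (all genes -0.03).

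The response genes showed the widest gap. Hilpda was at 308 CPM in control and 356 CPM in the library labelled knockout among monocytes with Xist, and at 357 and 82.4 CPM among those with Y-linked UMIs (952 and 51 UMIs, log2 -2.05). Egln3 was at 77.9 and 91.0 CPM with Xist and at 141 and 25.9 CPM with Y-linked UMIs (-2.24). Bnip3 was at 129 and 238 CPM with Xist and at 197 and 63.0 CPM with Y-linked UMIs. The Y-linked pool of the library labelled knockout was thus the low one for these 3 genes, below the other 3 pools. Ndrg1 (125, 160, 183 and 63.0 CPM in the same order), Ero1l (256, 258, 292 and 110) and Vegfa (125, 137, 128 and 56.6) had it lowest too. Gapdh moved less, at 1905 and 2662 CPM with Xist and at 2463 and 1543 CPM with Y-linked UMIs. Slc16a3 and P4ha1 kept log2 ratios of 0.04 and 0.02 in the Y-linked pair, and Bnip3l was lower in both pairs (-0.72 and -0.58).

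The split was also compared within each library. In control monocytes the cells with Y-linked UMIs lay slightly above those with Xist, with a median of 0.26 and none of 34 genes past 2-fold (0.981% of all genes tested higher, 0.496% lower). In the library labelled knockout they lay below, with a median of -0.76, 12 of 34 genes 2-fold lower (3.2%) and none higher (1.17%).

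Arg1, the arginase of tumor monocytes and a gene outside the 35, moved with the pools: it was at 762, 1052, 1762 and 346 CPM in the 4 pools in that order. The cluster with Arg1 among its 10 leading genes held 17.6, 39.5, 23.1 and 10.0% of their cells. Median depth was close, between 5538 and 6124 UMIs. The part of cell composition in the difference was not tested, and sex and animal cannot be told apart because the number of animals of each sex is unknown. Between the libraries macrophages gave smaller values in the same directions: the median was 0.18 with Xist (0 of 35 past 2-fold, against 1.21% of all genes tested higher and 0.7% lower) and -0.25 with Y-linked UMIs (Vegfa and Egln3 2-fold lower, 0.964% of all genes tested, and none higher, 0.416%). Vegfa was the widest there at a log2 ratio of -1.45 with Y-linked UMIs. Within the control library macrophages with Y-linked UMIs lay slightly below those with Xist, the reverse of monocytes, with a median of -0.11 and none of 35 genes past 2-fold (0.208% of all genes tested higher, 0.353% lower). In the library labelled knockout the median was -0.41, with 7 of 35 genes 2-fold lower (1.85%) and none higher (0.311%).

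**Figure D3:**
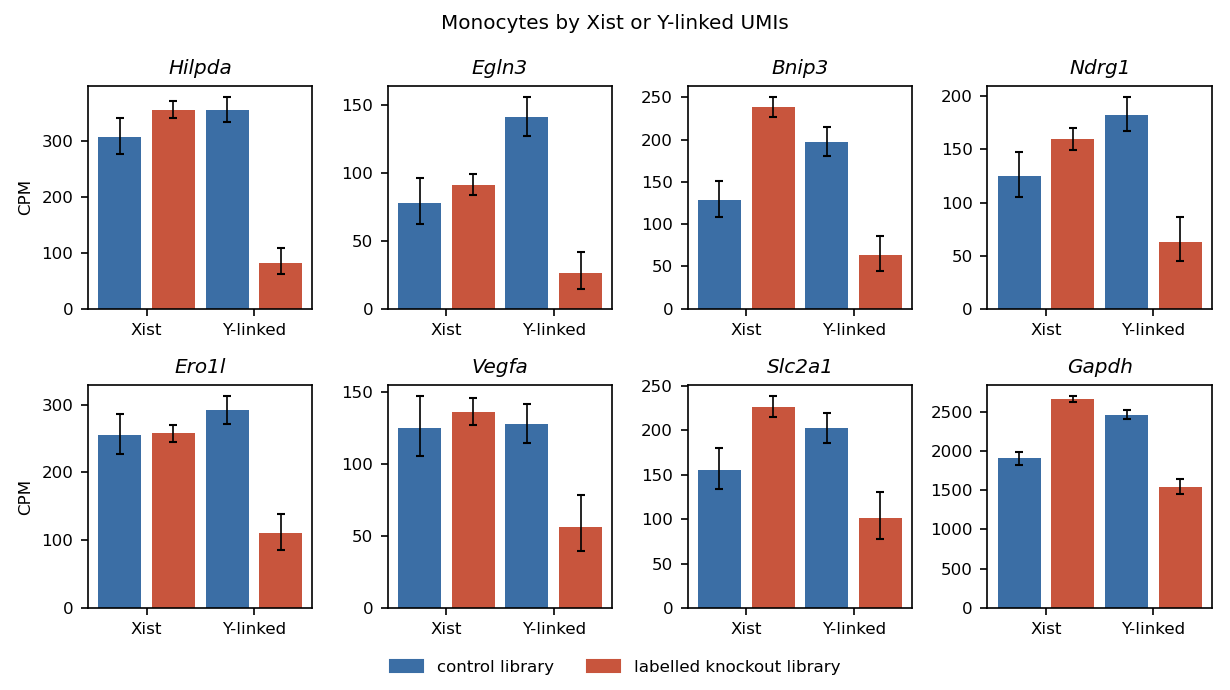
CPM of 8 genes in monocytes with Xist UMIs only and with Y-linked UMIs only, in the control library and the library labelled knockout; bars start at 0 and whiskers are exact 95% Poisson intervals. The Y-linked pool of the library labelled knockout (100 cells) is the lowest of the 4 for each of the 8 genes, with Hilpda at 82.4 CPM against 308 to 357 in the others.

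Other classes differed in direction, and the share of all genes on each side of 0 was not computed for them. In cDC2 cells 30 of the 32 genes tested were higher in the library labelled knockout, none past 2-fold (1.4% of all genes tested higher, 0.354% lower), with a median of 0.29 (all genes 0.00). The widest were Ddit4, an inhibitor of mTOR signalling, at 17.9 and 35.6 CPM, and Vegfa at 25.3 and 46.1 CPM. In T cells none of 32 passed 2-fold (0.9% of all genes tested higher, 0.124% lower), the median was 0.19, and Tpi1 was at 215 and 309 CPM. In natural killer cells 25 genes had enough UMIs. Hilpda was 2-fold higher there at 15.9 and 46.1 CPM (log2 1.29, fold interval 1.32 to 7.05, against 1.42% of all genes tested higher and 3.32% lower), and Pkm was at 222 and 422 CPM. Migratory dendritic cells were the reverse, with 25 of 31 genes lower, none past 2-fold (3.22% of all genes tested higher, 1.16% lower), and a median of -0.23. Neutrophils numbered 431 in control and 24 in the library labelled knockout. There 18 of 32 genes were 2-fold lower (22.6% of all genes tested) and 0 higher (7.14%), with a median of -1.11 (all genes -0.26), but 73.3% of the Hilpda UMIs of the 24 cells came from 1 cell. In B cells none of 27 passed 2-fold (0.414% of all genes tested higher, 0.888% lower) and the median was 0.00. In cDC1 cells 23 of 29 genes were higher, none past 2-fold (0.967% of all genes tested higher, 0.855% lower), with a median of 0.22. In plasmacytoid dendritic cells 18 genes had enough UMIs, none passed 2-fold (1.32% of all genes tested higher, 3.07% lower) and the median was 0.18.

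Summed over each class, monocytes exceeded macrophages in these genes in both libraries. Within each class the glycolysis levels differed by cluster, as given further below. In control 34 of 35 genes were higher in monocytes and in the library labelled knockout 33. The share of all genes above 0 was not computed. In each library 12 were 2-fold higher (4.48 and 5.22% of all genes tested), 11 of them the same genes, and none 2-fold lower (6.04 and 6.07%). The medians were 0.79 and 0.74 (all genes -0.09 and -0.11). The response genes led. Egln3 had 22.7 CPM in macrophages and 122 in monocytes of the control library, and 16.7 and 81.9 in the library labelled knockout (log2 2.19 in control). Hif1a itself, the transcript of the oxygen-regulated HIF subunit, was at 119 and 328 CPM in control and 114 and 346 in the other library (1.42 and 1.56). Vegfa (1.73 and 1.86), Ankrd37, a HIF target of unsettled function (1.62 and 1.77), Ero1l (1.59 and 1.51) and Hilpda (1.58 and 1.56) followed.

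Both transporters passed 2-fold, Slc2a1 at log2 1.41 and 1.38 and Slc16a3 at 1.37 and 1.70, as did Pfkp (1.09 and 1.37), Ddit4 (1.27 and 1.33) and Mxi1, an antagonist of Myc (1.22 and 1.39). Among the enzymes with small ratios were Tpi1 (0.27 and 0.46), Ldha (0.33 and 0.29) and Pgam1, the phosphoglycerate mutase (0.34 in both). The TCA cycle genes were lower in monocytes for 10 and 12 of 12 (medians -0.15 and -0.43) and 16 respiratory chain genes for 12 and 14 (-0.24 and -0.23). The 8 cell cycle genes were all 2-fold lower in monocytes in each library (medians -2.61 and -3.24), and the 10 genes of dissociation stress were higher (0.43 and 0.95). Mitochondrial UMIs had a median share of 5.14% in control macrophages and 4.06% in control monocytes. With a mitochondrial limit of 5%, which kept 308 of 679 control macrophages, 3 genes in place of 12 were 2-fold higher in control and the median was 0.45. With the classes taken from clusters, 22 were.

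Melanoma cells differed from the mononuclear phagocytes, that is macrophages and monocytes summed, by enzyme and by response gene. All 13 glycolytic enzymes were higher in melanoma cells in each library, 9 and 7 of them 2-fold. Of the 35, 15 and 14 were 2-fold higher (19.4 and 18.6% of all genes tested) and 5 and 4 were 2-fold lower (14.2 and 14%), with medians of 0.84 and 0.82 (all genes 0.26 and 0.25). Tpi1 was at 532 CPM in phagocytes and 2454 in melanoma cells of the control library, and at 644 and 2582 in the library labelled knockout (log2 2.20 and 1.99). Pgk1 (1.72 and 1.86), Gapdh (1.57 and 1.64) and Ldha (1.47 and 1.27) came next among the enzymes. Eno1, Pgk1 and Aldoa have near-identical copies in the feature table (Eno1b, at most 21.0 CPM in the classes checked, Pgk1-rs7, at most 6.65 CPM, and Aldoart1 and Aldoart2). The counts of these 3 members are therefore uncertain by an amount that was not measured.

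Response genes were on both sides. Adm (2.25 and 2.19), Higd1a, a mitochondrial protein of the respiratory chain (2.02 and 1.81), Mif, a secreted cytokine (1.79 and 1.75), and P4ha2 (1.62 and 1.74) were 2-fold higher in melanoma cells. Egln3 was at 66.0 CPM in control phagocytes and 5.24 in control melanoma cells (-2.79 in control, -2.57 in the other library), and Pfkfb3 at 63.3 and 6.77 (-2.54 and -2.47). Ndrg1 (-1.70 and -1.41) and Ankrd37 (-1.19 and -1.20) were lower too, and Hilpda crossed 2-fold in control (-1.06) and not in the other library (-0.88). Slc2a1 was lower at -0.66 and -0.74 although the enzymes downstream of it were higher. Genes beside the 35 filled in the picture: all 12 TCA cycle genes (medians 0.77 and 0.97) and all 16 respiratory chain genes (0.86 and 0.80) were higher in melanoma cells. Ldhb, the other lactate dehydrogenase subunit, was at 9.07 and 329 CPM in control, and Car9, the HIF-induced carbonic anhydrase, at 7.85 and 97.9.

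**Figure D4:**
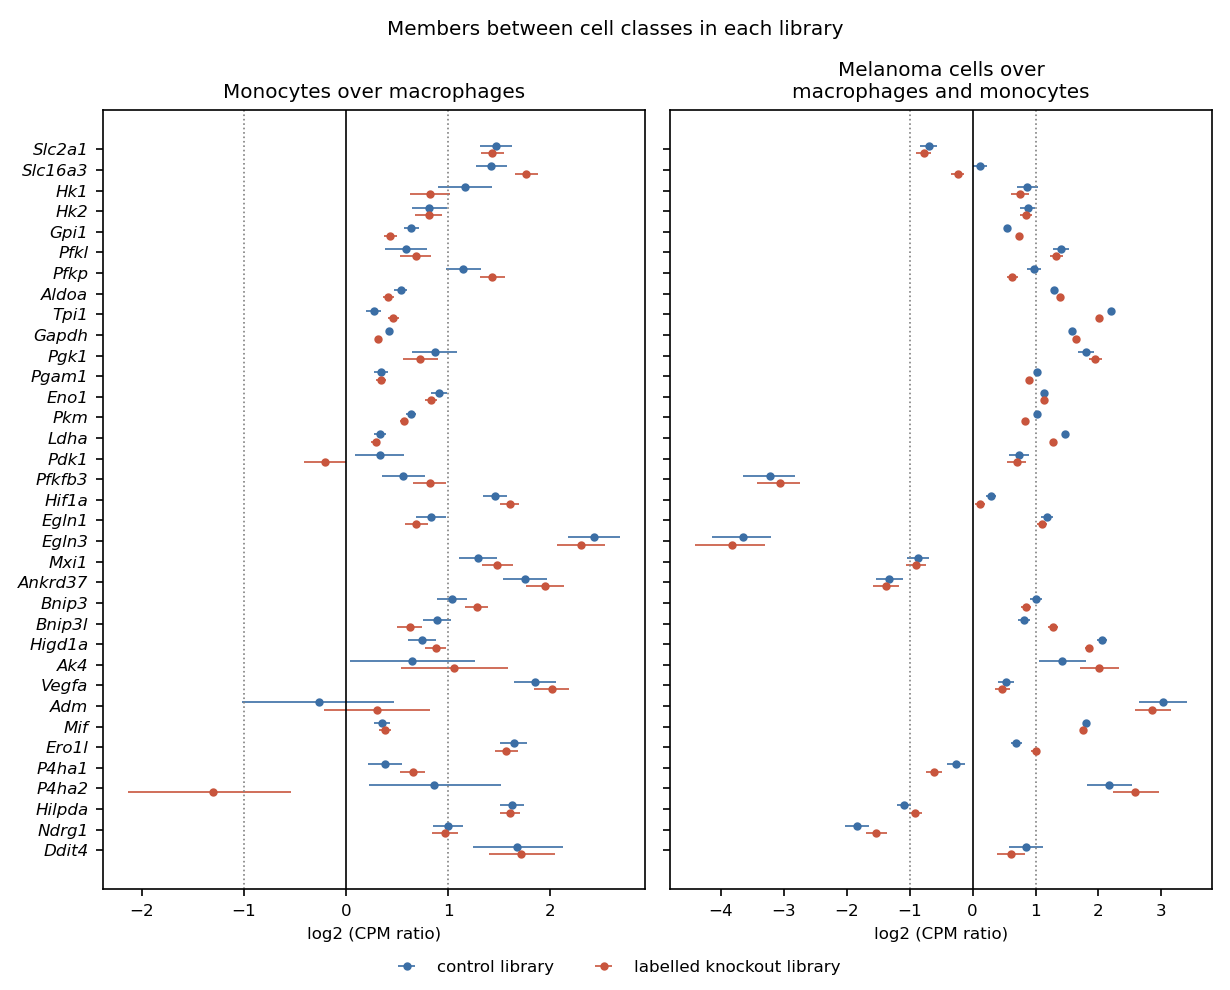
Ratio of CPM in monocytes to CPM in macrophages, and in melanoma cells to mononuclear phagocytes, for each of the 35 genes in both libraries, on a log2 axis with exact 95% intervals and dotted lines at 2-fold. The points of the 2 libraries lie close together for most genes, Egln3 is far to the right in the first comparison and far to the left in the second, and the ratios are without the added 5 CPM.

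Within monocytes the glycolysis genes were high in the cells that held response transcripts. Each cell was thinned to 2000 UMIs and called hypoxia-marked with at least 1 UMI of 9 response genes (Hilpda, Ndrg1, Egln3, Bnip3, Ero1l, Adm, Ankrd37, P4ha1 and Ak4). In monocytes 479 of 844 cells were marked in control (56.8%, 53.3 to 60.1) and 767 of 1210 in the library labelled knockout (63.4%, 60.6 to 66.1), with 22 and 126 shallower cells left out. With Xist only the shares were 47.7 and 66.6%, and with Y-linked UMIs only they ran the other way, at 59.4 and 44.4%. Macrophages gave 43.2 and 47.7% and melanoma cells 62.5 and 62.8%, with 5 and 162 shallower melanoma barcodes left out. B cells, taken as background, gave 26.8 and 28.7% of only 164 and 122 cells, with 1250 and 314 shallower ones left out. They were not the lowest class. T cells gave 22.5 and 22.3%, natural killer cells 23.1 and 16.9% and plasmacytoid dendritic cells 23.1 and 24.6%. At the 5% mitochondrial limit macrophages gave 55.3 and 51.1%, and with Y-linked UMIs only 38.0 and 33.8%, so the order of the libraries turned in both. Unthinned, the shares were 76.9 and 77.5% in monocytes and 18.6 and 18.8% in B cells. The mark is a range and not a cell type.

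The 18 genes of transport, enzymes, flux control and Mif were not used in the mark, and all 18 were higher in marked monocytes in each library. They passed 2-fold for 17 genes in control and 14 in the library labelled knockout (3.72 and 3.04% of all genes tested), the 14 being among the 17, with medians of 1.37 and 1.18 (all genes -0.09 and -0.10). Slc2a1 was at 61.6 CPM in unmarked and 309 in marked control monocytes, and at 80.1 and 301 in the other library (log2 2.24 and 1.85). Tpi1 was at 233 and 880 CPM in control and 306 and 1016 in the other library (1.90 and 1.72). Pfkp differed least, at 0.94 and 0.86. In macrophages 14 and 6 of the 18 passed 2-fold (2.33 and 1.7% of all genes tested) and none was 2-fold lower (2.09 and 0.918%), with medians of 1.28 and 0.85. In control 9 of 18 passed with classes from clusters, and 8 of the 13 that could be compared with Xist only. Slc2a1 was again the widest of the 18 there, at 20.4 and 202 CPM in control and 35.9 and 171 in the other library, and Gapdh was among the narrowest at 0.84 and 0.63. Neutrophil markers summed to 145 CPM in marked and 81.5 in unmarked control macrophages (G0s2 at 0 in the marked) and to 51.7 and 40.4 in the other library. Erythroid markers were at 0 in marked and 2.72 CPM in unmarked control macrophages, and at 325 and 93.0 in the other library; their part in the result was not tested.

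The remaining 8 genes were outside both the mark and the glycolysis group. Vegfa stood at 9.59 CPM (7 UMIs) in unmarked and 270 CPM (259 UMIs) in marked control monocytes, and at 20.3 and 209 CPM in the other library (log2 4.24 and 3.08). Mxi1 (2.13 and 2.07), Ddit4 (1.77 and 1.86), Egln1 (1.48 and 1.80) and Higd1a (1.43 and 1.70) were higher too. Hif1a differed less at 0.91 and 0.82, and Bnip3l least at 0.58 and 0.44. P4ha2 had 20 UMIs in marked and 0 in unmarked control monocytes.

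The difference followed the number of response UMIs. The summed level of the 18 glycolysis genes in control monocytes was 4733 CPM with 0 response UMIs, 5848 with 1, 8500 with 2 and 18981 with 3 or more. In the library labelled knockout it was 5576, 7853, 10058 and 16221 CPM, so the unmarked cells were higher and the most marked cells lower than in control. Macrophages ran from 4333 to 15808 CPM in control and from 5650 to 14159 CPM in the other library. In clusters built without the 35 genes, the cluster with Arg1 among its 10 leading genes held 195 and 432 monocytes, of which 92.3 and 88.0% were marked, with summed glycolysis levels of 20031 and 15251 CPM. The cluster with Chil3 among its leading genes had 44.8 and 53.7% of its monocytes marked and 5797 and 6847 CPM. The Arg1 cluster also held 88 and 158 macrophages, of which 79.5 and 78.5% were marked, at 13642 and 11848 CPM. The cluster with C1qa among its leading genes held 373 and 489 macrophages, 38.1 and 40.9% marked, at 5723 and 6864 CPM. The part of these clusters in the difference between monocytes and macrophages was not tested.

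**Figure D5:**
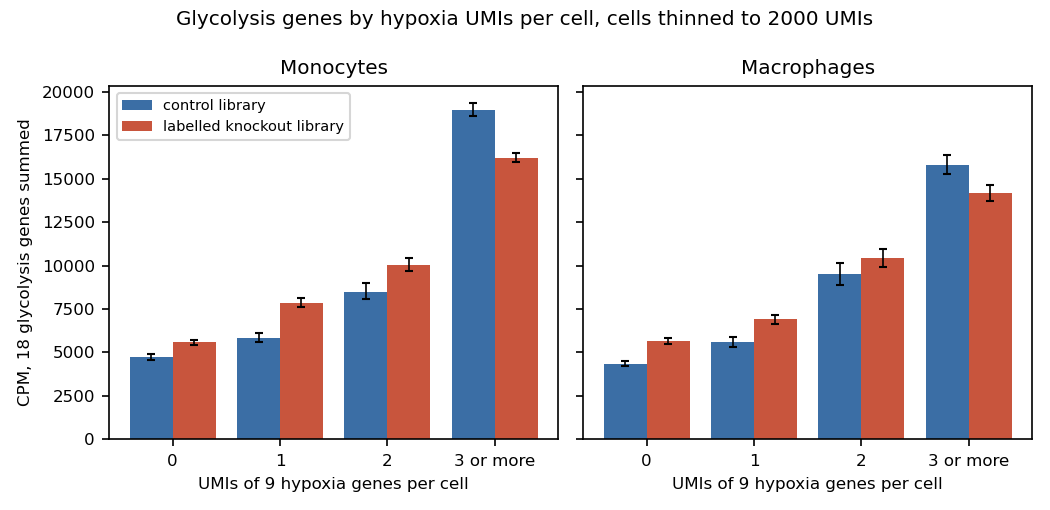
Summed CPM of the 18 glycolysis genes in monocytes and macrophages, by the number of UMIs of 9 other response genes in the cell (0, 1, 2, 3 or more), each cell thinned to 2000 UMIs, in both libraries, with exact 95% Poisson intervals. The level is higher at each step in each class and library, from 4733 to 18981 CPM in control monocytes.

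In marked monocytes 10 and 11 of 12 TCA cycle genes were lower (medians -0.33 and -0.42), the pentose phosphate genes had medians of -0.30 and -0.45, and the respiratory chain lay near the median of all genes at -0.07 and -0.12. Of further glycolysis and glycogen genes 4 of 10 and 3 of 11 passed 2-fold, against 3.72 and 3.04% of all genes tested. Gys1, the muscle glycogen synthase, was at 5.48 and 65.8 CPM in control and 10.2 and 45.0 in the other library, and Pgm2, a sugar phosphate mutase, at 8.22 and 50.1 in control. Of further hypoxia genes 8 of 14 and 5 of 13 passed 2-fold, against the same shares of all genes. Arg1 was at 45.2 and 2678 CPM in control and 117 and 1252 in the other library (5.74 and 3.36), and Fam162a, a mitochondrial HIF target, at 28.8 and 241 and at 51.9 and 194. Nos2, the inducible nitric oxide synthase, had 37 UMIs in marked and 0 in unmarked control monocytes.

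Genes of dissociation stress also moved with the mark. Of 10, 2 were 2-fold higher and 1 lower in marked monocytes of each library (medians -0.16 and -0.24). Of all genes tested, 3.72 and 3.04% were 2-fold higher and 2.33 and 1.67% lower. Hspa1a, a heat shock chaperone, was at 152 CPM in unmarked and 354 in marked control monocytes and at 156 and 520 in the other library, and its near-copy Hspa1b at 203 and 443 and at 133 and 444. In macrophages the list had medians of 0.54 and 0.34, with Hspa1a at 72.0 and 804 CPM in control and 39.2 and 399 in the other library. Their part in the result was not tested. Summed neutrophil markers were 199 CPM in marked and 225 in unmarked control monocytes and 76.3 and 134 in the other library. Summed melanoma markers were 20.9 and 21.9 CPM in control and 74.3 and 40.6 in the other library, and erythroid markers 3.1 and 0 in control and 360 and 4.5 in the other library; their part in the result was not tested.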

How the data were processed

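Single-cell RNA was measured with 10x Genomics 3' v3 chemistry in 1 library per group, each a pool of 4 tumors. The authors deposited raw UMI counts per gene and barcode, made with Cell Ranger 3.0.1 and listed with build mm10, per the submitters' processing notes. Everything else was computed here with scanpy 1.11.5 and scipy 1.17.1, and with leidenalg 0.10.2 for clusters, under Python 3.11.15. The members and gene lists were chosen with earlier results of these data known.

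Barcodes under 200 genes or over 10% mitochondrial UMIs were dropped, and Scrublet doublets were removed at 0.8% per 1000 barcodes. The median depth was 2600 UMIs (control) and 4455 UMIs. A cell entered a class with at least 2 of its markers, 0.25 of the class scale and a lead of 1.5 over the next class, and 797 and 742 cells entered none. Counts were summed per class and library and given as CPM over all UMIs of those cells. Ratios are log2 of (CPM + 5) over (CPM + 5), for genes with at least 20 UMIs in the sums together, and "2-fold" is a ratio of at least 2 on that scale. Where genes are counted only as higher or lower, the share of all genes on that side of 0 was not computed. The exact 95% intervals are Poisson for CPM, conditional binomial for ratios (without the added 5) and Clopper-Pearson for shares, and PCR copies were already collapsed by UMI. Cells were thinned without replacement to 1000 or 2000 UMIs, and clusters used 2000 variable genes without the members, 30 principal components and 15 neighbours. Genes were named when past 2-fold with an interval that excludes 1, or widest or narrowest in their role group. The scripts were tested on simulated data. Alternatives were another pseudocount (1) and UMI minimum (100), a mitochondrial limit of 5%, doublets kept, classes from clusters, a lead of 3, cells with Xist or with Y-linked UMIs only, 5% free RNA subtracted, centring on all genes, shallow melanoma barcodes left out and thinning to 1000 or 3000.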

Additional observations from a re-analysis of the deposited data

Results flagged for a closer look

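The difference between the libraries took opposite signs in monocytes with Xist UMIs only and in monocytes with Y-linked UMIs only. The median log2 ratio of the library labelled knockout to control over the 34 genes was 0.38 with Xist and -0.65 with Y-linked UMIs, and in macrophages the medians were 0.18 and -0.25. By gene, the ratios in monocytes with Xist and with Y-linked UMIs were 0.87 and -1.57 for Bnip3, 0.40 and -1.11 for Egln1, 0.21 and -2.05 for Hilpda, 0.34 and -1.47 for Ndrg1, 0.70 and -1.19 for Ddit4, and 0.26 and -1.23 for Mxi1. These 6 genes had counting intervals on opposite sides of 1 and a ratio of at least 2-fold in 1 of the pairs. The difference itself was not tested, since each library is 1 pool of cells with an unknown number of animals of each sex, and the Y-linked pool of the library labelled knockout holds 100 monocytes.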

How the results depend on the processing

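No paired analysis was possible because each group has 1 library. Limits: counting intervals hold no variation between animals, the gates cut a range between monocytes and macrophages, and the depth of B cells and neutrophils limits their shares. Under the alternatives 101 medians moved by less than the median counting error of a gene and 20 by more, and 223 counts stayed within 1.5 times and 19 did not. Of the shares of marked cells 12 stayed the same and 20 moved. Of the ratios of single genes 2534 stayed the same, 828 moved and 1 reversed. The 20 medians follow, and the cause was not tested. For the library labelled knockout over control, macrophages gave -0.20 at a mitochondrial limit of 5% and -0.25 with Y-linked UMIs only. Monocytes gave 0.38 with Xist only and -0.65 with Y-linked UMIs only, and melanoma cells 0.13 at the 5% limit, 0.062 with Xist and -0.35 with Y-linked UMIs. The melanoma barcodes with Xist only numbered 8 and 42, and those with Y-linked UMIs only 13 and 4. For monocytes over macrophages, control gave 0.45 at the 5% limit, 1.14 with classes from clusters and 0.96 with Y-linked UMIs, and the other library 0.87 with clusters and 0.45 with Y-linked UMIs. For melanoma cells over phagocytes, control gave 0.62 at the 5% limit, 0.97 with Xist, 1.07 with Y-linked UMIs and 0.58 centred on all genes, and the other library 0.66, 0.99 and 0.58 for the last 3. The Xist and Y-linked values here rest on the same few melanoma barcodes. Marked over unmarked monocytes of the library labelled knockout gave 0.80 with Y-linked UMIs, with 5 of the 11 genes that could be compared 2-fold higher in place of 14 of 18.

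Other counts that moved past 1.5 times were as follows. The 1 gene 2-fold lower in monocytes (P4ha2) became 0 at a minimum of 100 UMIs, with doublets kept, with clusters, with Xist only and centred on all genes, and 9 with Y-linked UMIs. With Y-linked UMIs 2 genes were lower in macrophages and 5 in melanoma cells, and at the 5% limit 1 was higher in melanoma cells. Genes 2-fold higher in monocytes than in macrophages numbered 3 in control at the 5% limit, 22 in control with clusters and 7 in the other library with Y-linked UMIs, where a pseudocount of 1 made 1 gene lower. Genes lower in melanoma cells than in phagocytes numbered 2 in control with Xist, and 7 with Xist and 2 with Y-linked UMIs in the other library. In marked control macrophages 14 of 18 became 9 of 18 with clusters and 8 of 13 with Xist. P4ha2 over phagocytes turned to -0.42 in the 4 melanoma cells with Y-linked UMIs of the library labelled knockout. Thinned to 1000 UMIs, 44.8 and 48.6% of monocytes were marked, and thinned to 3000, 63.9 and 70.7%.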
